A study of Mus musculus with 4 samples.

Results

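The clustered histone genes are the mouse genes whose symbols begin with Hist1h, Hist2h, Hist3h or Hist4h, and every listed gene with such a symbol was taken. They numbered 67 of the 22488 genes listed in each library. By the protein they encode, 6 were H1, 18 were H2A, 18 were H2B, 12 were H3 and 13 were H4 genes. By location, 54 belonged to the Hist1 cluster on chromosome 13, 10 to Hist2 on chromosome 3, 2 to Hist3 on chromosome 11, and Hist4h4 lies alone on chromosome 6.

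Expression was measured by RNA sequencing of total RNA from cultured vascular smooth muscle cells (the muscle of the artery wall) of C57BL/6 mice at passages 4 to 10. One group, called circEsyt2 siRNA here, received for 48 hours siRNA directed at circEsyt2, a circular RNA whose name comes from Esyt2 (2 libraries). The titles of these 2 libraries do not say whether both received the same siRNA. The other group received a scramble siRNA, which is designed to have no target, for the same time (2 libraries). Whether the replicates are separate cultures is not stated in the labels. The p-values therefore reflect no more than the spread between these libraries, and that spread may be technical.

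Histones are the proteins around which DNA is wound: H2A, H2B, H3 and H4 form the core of the nucleosome, and H1 binds the linker DNA that enters and leaves it. Most histone protein is made in S phase from the clustered genes, whose messenger RNAs are not spliced and end in a conserved stem-loop in place of a poly(A) tail. The stem-loop binding protein (Slbp) and the U7 small nuclear ribonucleoprotein direct the cut that makes this end. In human cells, HIST1H1C and HIST1H2BC are among the clustered genes that can also give polyadenylated transcripts, mostly in differentiated cells.

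The longest coding transcript models of GENCODE release M21 (GRCm38) held the stem-loop downstream of the coding sequence in 45 of the 67 members. It was searched as GGNNNTNNNNANNNCC with all 6 stem pairs complementary, a G-T pair being allowed. The sites of 7 of the 9 members that passed the test described below are shown because they carry the element that defines this class of transcript. Capitals mark the 16 bases of stem and loop, and 5 bases stand on either side.

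Hist1h1c: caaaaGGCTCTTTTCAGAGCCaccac
Hist1h2ab: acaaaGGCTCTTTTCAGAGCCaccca
Hist1h2ae: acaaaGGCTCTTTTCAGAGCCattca
Hist1h3b: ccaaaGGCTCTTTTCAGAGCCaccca
Hist2h3c2: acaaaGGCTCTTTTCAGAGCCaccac
Hist1h4d: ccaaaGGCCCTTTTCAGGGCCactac
Hist2h4: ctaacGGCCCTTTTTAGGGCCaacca

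The first 5 of these share 1 stem-loop, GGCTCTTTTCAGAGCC, which 25 members carried and which was found in no H4 gene. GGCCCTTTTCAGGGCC was found in 7 H4 genes, and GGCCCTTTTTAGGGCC only in Hist1h4i and Hist2h4. In all, 8 distinct stem-loops occurred. The longest models of Hist1h2bc and Hist1h2ah, the other members that passed the test, held no stem-loop. That says only that the letters are not in this model, and 13 members' models end at the stop codon.

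The H4 genes encode 1 protein but differ in their DNA, which is what lets reads be assigned to 1 of them. Over the 309 coding bases, pairs of H4 genes were identical at a median of 93.9% of positions, with a range of 85.4% to 100%. The first 60 coding bases of the 3 H4 genes with the smallest standard errors in the test below are shown, with capitals at the 16 positions that differ among them.

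Hist1h4d: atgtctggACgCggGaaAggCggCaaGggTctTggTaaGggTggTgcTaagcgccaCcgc
Hist1h4i: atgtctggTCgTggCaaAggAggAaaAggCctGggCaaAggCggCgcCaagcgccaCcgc
Hist2h4: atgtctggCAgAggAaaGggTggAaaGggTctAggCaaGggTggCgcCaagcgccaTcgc

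Promoter sequence (RefSeq, GRCm38.p6; the 250 bases before the start) was found for 62 members. The promoters of 2 members that were higher with circEsyt2 siRNA are shown, Hist1h1c at chr13:23738557-23738806 and Hist1h3b at chr13:23752095-23752344, both on the plus strand. The RefSeq start of Hist1h3b lies downstream of the start in GENCODE M21, so the end of its window is inside the M21 gene. Capitals mark CCAAT and TATAAA.

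Hist1h1c: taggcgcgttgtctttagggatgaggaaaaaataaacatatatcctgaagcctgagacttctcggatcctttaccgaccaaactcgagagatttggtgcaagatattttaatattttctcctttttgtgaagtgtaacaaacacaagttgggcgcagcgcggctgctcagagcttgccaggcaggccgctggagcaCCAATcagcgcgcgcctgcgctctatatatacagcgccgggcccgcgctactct
Hist1h3b: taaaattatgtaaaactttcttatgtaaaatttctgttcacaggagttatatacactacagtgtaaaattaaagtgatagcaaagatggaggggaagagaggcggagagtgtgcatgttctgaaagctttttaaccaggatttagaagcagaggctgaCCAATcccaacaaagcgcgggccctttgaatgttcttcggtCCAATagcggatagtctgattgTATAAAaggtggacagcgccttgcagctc

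Searched on both strands, CCAAT was present in 82.3% of the 62 members' promoters, against 33.9% of all 32851 promoters in the table. TATAAA was present in 46.8% of members' promoters, against 12.4% of all. ATTTGCAT, the octamer bound by POU-domain factors, was present in 21.0% of members' promoters, against 1.60% of all. The motifs differed by type: CCAAT stood in all 6 H1, all 18 H2A, all 16 H2B, 8 of 10 H3 and 3 of 12 H4 promoters. The octamer was found in 7 of 18 H2A and 6 of 16 H2B promoters and in no H1, H3 or H4 promoter. Hist2h3c2, the H3 member with the smallest p, had none of the 3 motifs in this window. These matches describe the letters and do not show that a factor was bound.

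Read totals recovered from the digits of the deposited values were 3765056 and 3127224 in the circEsyt2 siRNA libraries and 2516428 and 4116791 in the scramble libraries. Between 16145 and 18783 genes were above 0 in a library. Across 11290 tested genes, Pearson's r of log2 values was 0.931 between the circEsyt2 siRNA replicates and 0.972 between the scramble replicates, genes not being independent replicates. Markers of smooth muscle were present in all 4 libraries, their summed level being 1508 and 1416 FPKM with circEsyt2 siRNA and 2375 and 2451 FPKM with scramble siRNA. circEsyt2 siRNA replicate 1 stood apart by 10 hepatocyte markers, albumin (Alb) among them, that summed to 3140 FPKM there, against 100 FPKM in replicate 2 and 16.2 and 8.23 FPKM in the scramble libraries. Results are therefore also given without that library. Replicate 2 too lay above both scramble libraries in these markers, so leaving out replicate 1 does not remove all of this RNA from the group. FPKM is a count per kilobase of gene length scaled to the library total, so levels can be compared between genes. At these depths 1 counted read in 1 kb is worth 0.243 to 0.397 FPKM, and a fragment often gave 2 counted reads.

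RNA of the clustered histone genes, summed, was higher with circEsyt2 siRNA. The 67 members together had 398 and 369 FPKM in the circEsyt2 siRNA libraries, against 241 and 248 FPKM in the scramble libraries. The groups did not overlap, and their means were 384 ± 20.2 and 245 ± 4.58 FPKM (SD, n = 2 each), a ratio of 1.57. The members took 0.0468% and 0.0427% of all counted reads with circEsyt2 siRNA and 0.0263% and 0.0279% with scramble siRNA. Without circEsyt2 siRNA replicate 1, the log2 ratio of the summed FPKM was 0.60, against 0.65 with it. In bulk RNA, more cells making histone RNA and more histone RNA per cell cannot be told apart. Whether poly(A) RNA was selected is not given in the sources used here. How fully members' transcripts without a poly(A) tail were measured is therefore not known.

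Split by type, the ratio of summed FPKM was largest for H3 and smallest for H2A. H3 genes summed to 57.1 and 59.0 FPKM with circEsyt2 siRNA and to 24.3 and 26.7 FPKM with scramble siRNA, a ratio of 2.28. H4 genes summed to 90.0 and 79.4 FPKM, against 59.3 and 49.7 FPKM, a ratio of 1.55. Both sums were higher in each circEsyt2 siRNA library than in either scramble library, and they stayed so without the most abundant member, at ratios of 2.00 for H3 and 1.72 for H4. H1 genes summed to 73.1 and 78.9 FPKM with circEsyt2 siRNA and to 51.3 and 49.3 FPKM with scramble siRNA, a ratio of 1.51. H2B genes summed to 160 and 135 FPKM, against 89.4 and 107 FPKM, a ratio of 1.498. These 2 sums rested on 1 gene each: without Hist1h1c the H1 ratio was 1.01, and without Hist1h2bc the H2B ratio was 1.04. H2A genes summed to 18.2 and 17.1 FPKM with circEsyt2 siRNA and to 16.9 and 14.8 FPKM with scramble siRNA, a ratio of 1.11. The 2 groups barely separated there, and without Hist1h2ac the ratio was 0.836. In counted reads per library total the H2A ratio was 1.71, because long transcripts such as that of Hist1h2ac weigh more in reads than in FPKM. On that scale H1, at 1.54, had the smallest ratio and H3, at 2.19, the largest. The 4 most abundant members, Hist1h2bc, Hist1h1c, Hist1h4i and Hist2h3c2, held 63.8% of the members' FPKM with circEsyt2 siRNA and 60.7% with scramble siRNA; the other 63 gave a ratio of 1.44.

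**Figure D1:**
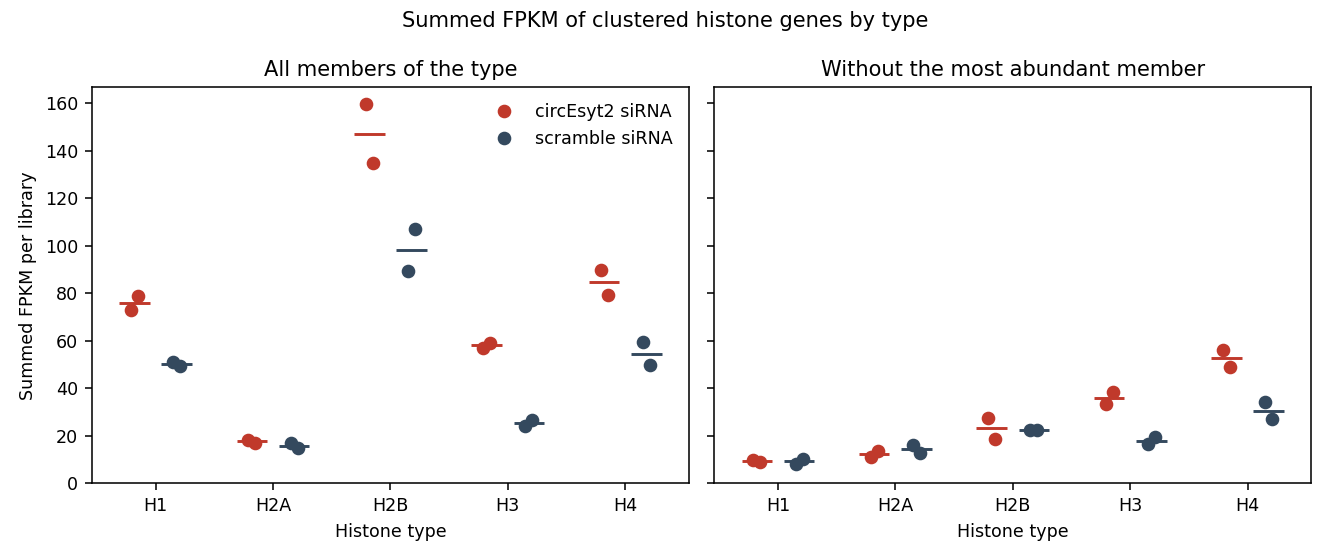
Summed FPKM (linear axis) of the clustered histone genes of each type, for circEsyt2 siRNA (red, left) and scramble siRNA (dark, right). Points are the 2 libraries of a group and lines their means; on the right each type is summed without its most abundant member, where H3 and H4 keep ratios of 2.00 and 1.72 and H1 and H2B come to 1.01 and 1.04.

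Of the 67 members, 12 were listed at 0 in every library (7 H2A, 2 H2B and 3 H3 genes) and 18 more averaged under 1 FPKM. The remaining 37, namely 4 H1, 7 H2A, 8 H2B, 9 H3 and 9 H4 genes, were tested with all other genes that averaged at least 1 FPKM. The test was limma on log2(FPKM + 1), with Benjamini-Hochberg adjustment over 11290 genes and a threshold of 0.05, and a log2 fold change on this scale understates the change of low genes. By this test 9 members were called, 7 higher and 2 lower with circEsyt2 siRNA, and 28 were not called. That is 24.3% of the tested members, against 12.7% of all tested genes. The share called higher was 18.9%, against 5.47% of all, and the 2 members called lower stand beside 7.26% of all tested genes called lower. Of the tested members, 29 had a log2 fold change above 0 (78.4%, against 50.2% of all), and the median was 0.43 (0.0037 over all tested genes). The groups did not overlap for 18 members that were higher (48.6%, against 29.7% of all) and 4 that were lower (10.8%, against 31.1% of all). H1 had 1 member called higher, H2B 1, H3 2 and H4 2, with none called lower in these types, while H2A had 1 called higher and 2 called lower. At an unadjusted p under 0.05 stood 13 members (35.1%, against 30.1% of all). By limma's voom on the recovered reads, 3 members were called higher, Hist1h1c, Hist1h2bc and Hist2h3c2, a share of 8.11% that was near the 8.06% of all genes it tested. Of the tested members, 11 averaged under 1 FPKM in 1 group and so passed the filter only through the other, among them the called genes Hist1h2ab, Hist1h2ae and Hist1h2ah, which had to differ to be tested at all. The shares above include them. Under a filter of at least 5 FPKM on the mean, 5 of 11 members were called higher (45.5%, against 12.0% of the 6980 genes then tested). Of these 11, Hist1h3b, Hist1h4d, Hist1h4c and Hist1h4m averaged under 5 FPKM with scramble siRNA and passed this filter only through the circEsyt2 siRNA group. Hist1h3b and Hist1h4d are among the called genes, so the 45.5% is also affected by this selection. Among members with at least 20 counted reads over the 4 libraries, 6 of 22 were called higher (27.3%, against 5.48% of the 11062 such genes). With a library left out, 1 group holds a single library, so effect sizes are given. Without circEsyt2 siRNA replicate 1 the members' median log2 fold change was 0.38 (-0.0062 over all genes then tested). Without circEsyt2 siRNA replicate 2 it was 0.52 (-0.0051 over all). Calls of members were lost in each such fit, and all of them were lost without either scramble library.

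**Figure D2:**
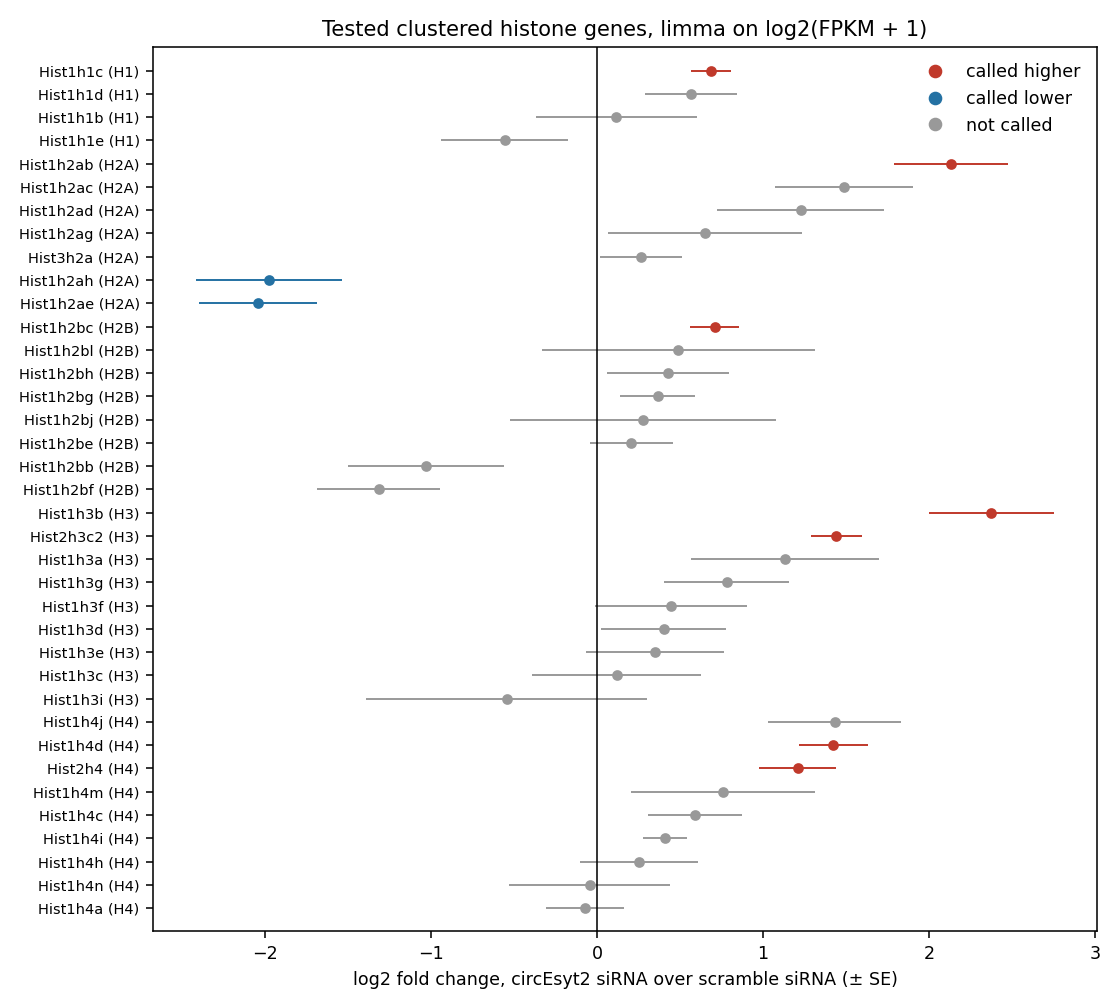
Log2 fold change with its SE from limma on log2(FPKM + 1), circEsyt2 siRNA over scramble siRNA, for the 37 tested members grouped by type. Red points are the 7 called higher, blue points the 2 called lower and grey points the 28 not called; 29 points lie above 0.

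H1 genes encode the linker histones. Hist1h1c (chr13:23738808-23740367) encodes a subtype made in most somatic cells and was the second most abundant member. It had 63.3 and 69.9 FPKM in the circEsyt2 siRNA libraries, against 43.1 and 39.1 FPKM in the scramble libraries. Both circEsyt2 siRNA values lay above both scramble values, and the log2 fold change was 0.68 ± 0.12 (SE; limma adjusted p = 0.0215). The call was lost without a trend in the variance, without circEsyt2 siRNA replicate 2 and on values rescaled to TPM, while voom on reads kept it. It rests on 372 and 341 counted reads against 169 and 251, and no 150-base stretch of the transcript occurs in another gene. The other H1 genes were low. Hist1h1d, Hist1h1e and Hist1h1b, which encode further somatic subtypes, averaged under 4 FPKM in each group and were not called. Their log2 fold changes were 0.57, -0.56 and 0.12. Hist1h1t, which encodes the testis subtype, had 2 reads in each circEsyt2 siRNA library and none in the scramble libraries, too few for a fold.

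H2A genes gave the least uniform picture, most of them at low counts. Hist1h2ac (chr13:23681467-23683948), the most abundant of them, had 7.28 and 3.61 FPKM with circEsyt2 siRNA and 0.640 and 1.96 FPKM with scramble siRNA. The groups did not overlap, yet replicates were far apart within both groups, and it was not called (log2 fold change 1.49 ± 0.42, limma adjusted p = 0.0717). Hist3h2a, in the small Hist3 cluster, had 2.48 and 2.83 FPKM with circEsyt2 siRNA and 2.04 FPKM in each scramble library, and was not called. Hist1h2ab (chr13:23751126-23751598) was called higher (log2 fold change 2.13 ± 0.34, limma adjusted p = 0.0175). It had 3.37 and 3.38 FPKM with circEsyt2 siRNA and was listed at 0 in both scramble libraries. These values are 6 and 5 counted reads against none, and set against a floor of 3 reads per scramble library the level was at least 1.66-fold higher. Of its 150-base stretches 45.1% occur in other genes, Hist1h2ae and Hist1h2ah among them, and reads from those stretches cannot be assigned to 1 copy. Leaving out circEsyt2 siRNA replicate 2 ended the call.

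The only members called lower were H2A genes with few reads. Hist1h2ae (chr13:23570517-23571220) had 0 and 0.454 FPKM with circEsyt2 siRNA and 4.52 and 3.45 FPKM with scramble siRNA, which is 1 counted read against 18 over the groups. Its log2 fold change was -2.04 ± 0.35 (limma adjusted p = 0.0212), and the groups were well apart. Of its 150-base stretches 24.5% occur in other genes, Hist1h2ab among them. Its gene model, like those of Hist1h2ab and Hist1h2ac, overlaps a predicted gene. Hist1h2ah (chr13:22035164-22035568) had 0 and 0.790 FPKM with circEsyt2 siRNA and 5.89 and 2.999 FPKM with scramble siRNA, or 1 read against 11 (log2 fold change -1.97 ± 0.44, limma adjusted p = 0.0403). It shares 84.8% of its 150-base stretches with other genes, its gene model overlaps a predicted gene, and its call was lost in 10 of 14 alternative settings. With limma's voom on the recovered reads, neither of these genes nor Hist1h2ab was called. The H2A genes listed at 0 throughout numbered 7, among them the identical coding pair Hist2h2aa1 and Hist2h2aa2.

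H2B was dominated by Hist1h2bc (chr13:23684199-23692908), the most abundant clustered histone gene. It had 132 and 116 FPKM in the circEsyt2 siRNA libraries, against 67.03 and 84.7 FPKM in the scramble libraries. The groups did not overlap, with 574 and 420 counted reads against 195 and 403, and the log2 fold change was 0.71 ± 0.15 (limma adjusted p = 0.0344). The call was lost when either circEsyt2 siRNA library was left out and without a trend in the variance. The annotated transcript of Hist1h2bc is spliced, with 2 exon blocks of 1156 bases in all and no stem-loop. Of the gene's 150-base stretches 17.4% occur in other genes, Hist1h2bg among them. Hist1h2bg had 7.31 and 11.4 FPKM with circEsyt2 siRNA and 7.07 and 6.68 FPKM with scramble siRNA, and the higher scramble value lay close to the lower circEsyt2 siRNA value. Hist1h2be had 2.39 and 2.66 FPKM, against 1.88 and 2.24 FPKM, and Hist1h2bb had 1.05 and 0.630 FPKM, against 4.69 and 1.43 FPKM. None of these 3 was called. The gene models of Hist1h2be and of the H1 gene Hist1h1e overlap at 1 end, and reads in that stretch cannot be told apart.

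H3 genes had the largest ratio of summed levels, and 2 of them were called higher. Hist2h3c2 (chr3:96238108-96239127), in the Hist2 cluster, had 23.7 and 20.4 FPKM with circEsyt2 siRNA and 7.79 and 7.14 FPKM with scramble siRNA. Replicates lay close together and the groups far apart, and the log2 fold change was 1.44 ± 0.15 (limma adjusted p = 0.0053), the smallest adjusted p of any member. The reads behind it were 91 and 65 against 20 and 30. The call was lost only without a scramble library, and 1.34 to 1.57 was the range of its log2 fold change over 15 alternatives. Of its 150-base stretches 59.4% also occur in other genes, including Hist2h3c1, which was listed at 0 in every library. Hist1h3b (chr13:23752267-23752886) had 6.85 and 15.99 FPKM with circEsyt2 siRNA and 1.28 and 1.18 FPKM with scramble siRNA. The circEsyt2 siRNA libraries differed more than 2-fold from each other but both were well above the scramble libraries (log2 fold change 2.37 ± 0.38, limma adjusted p = 0.0164). It rests on 16 and 31 reads against 2 and 3, and the call was lost by voom on reads, without a trend in the variance and without circEsyt2 siRNA replicate 2. Of its 150-base stretches 49.5% occur in other genes, Hist1h3d among them.

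The other H3 genes were not called. Hist1h3d had 14.5 and 6.40 FPKM with circEsyt2 siRNA and 5.73 and 8.75 FPKM with scramble siRNA. Hist1h3e had 2.54 and 5.74 FPKM with circEsyt2 siRNA and 1.90 and 4.07 FPKM with scramble siRNA. In both the groups overlapped. In Hist1h3a and Hist1h3g the groups did not overlap, but few reads stood behind them. Hist1h3g had 2.005 and 4.83 FPKM with circEsyt2 siRNA and 1.4996 and 1.37 FPKM with scramble siRNA, and Hist1h3a had 0.995 and 3.59 FPKM, against 0 and 0.910 FPKM. The log2 fold change was above 0 in 8 of the 9 tested H3 genes and below 0 in Hist1h3i, whose value ranged from -1.68 to 0.055 over the alternatives.

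H4 genes had 2 members called higher. Hist1h4d (chr13:23581598-23582735) had 14.2 and 11.5 FPKM with circEsyt2 siRNA and 3.49 and 4.91 FPKM with scramble siRNA, a log2 fold change of 1.42 ± 0.21 (limma adjusted p = 0.0132). Hist2h4 (chr3:96261682-96263311), which lies in the Hist2 cluster with Hist2h3c2, had 5.54 and 5.49 FPKM with circEsyt2 siRNA and 2.19 and 1.49 FPKM with scramble siRNA (log2 fold change 1.21 ± 0.23, limma adjusted p = 0.0265). In both genes the groups lay far apart, and no 150-base stretch of either transcript occurs in another gene. Both calls were lost by voom on reads and without circEsyt2 siRNA replicate 2, and that of Hist2h4 also without circEsyt2 siRNA replicate 1 and with no filter on low values. The most abundant H4 gene, Hist1h4i (chr13:22040636-22041362), had 34.0 and 30.3 FPKM with circEsyt2 siRNA and 25.1 and 22.7 FPKM with scramble siRNA. Its groups did not overlap but it was not called (log2 fold change 0.41 ± 0.13, limma adjusted p = 0.0986). Hist1h4h had 15.8 and 6.80 FPKM, against 8.46 and 8.79 FPKM, and Hist1h4m had 4.62 and 10.3 FPKM, against 6.92 and 1.81 FPKM. In both the groups overlapped, and Hist1h4m has a coding sequence identical to that of Hist1h4n.

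**Figure D3:**
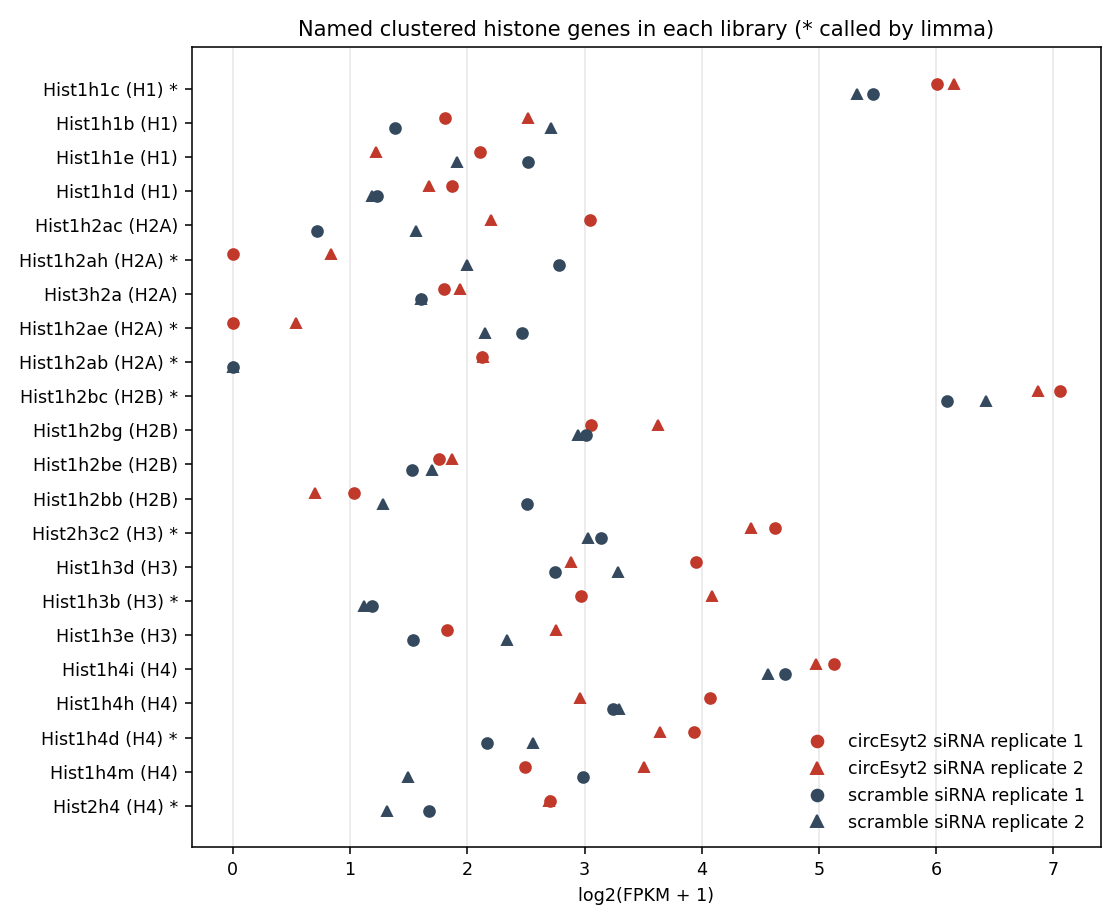
Level on a log2(FPKM + 1) axis of the called members and the 4 most abundant members of each type, with circEsyt2 siRNA in red (above) and scramble siRNA in dark (below); circles are replicate 1 and triangles replicate 2. An asterisk marks a call by limma; Hist1h1c, Hist1h2bc, Hist2h3c2 and Hist1h4d separate the groups at levels above 3 FPKM, while Hist1h2ab, Hist1h2ae and Hist1h2ah do so at or near 0 in 1 group.

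Ratios were not the same along the chromosomes, a difference that was not tested. On chromosome 13 the members fall into 2 blocks. The 31 members of the block at chr13:23531050-23934851 summed to 303 and 285 FPKM with circEsyt2 siRNA and 175 and 190 FPKM with scramble siRNA, a ratio of 1.61. The 23 members at chr13:21715763-22043676 summed to 61.1 and 53.8 FPKM, against 53.3 and 46.4 FPKM, a ratio of 1.15. In that block the higher scramble library lay just below the lower circEsyt2 siRNA library. The Hist2 cluster on chromosome 3 summed to 30.4 and 27.1 FPKM with circEsyt2 siRNA and to 10.3 and 9.01 FPKM with scramble siRNA, a ratio of 2.98, nearly all of it from Hist2h3c2 and Hist2h4. Hist4h4 had 1.11 and 0.894 FPKM, against 0.278 and 0.170 FPKM, from 12 and 8 reads against 2 and 2. It averaged under 1 FPKM and was not tested.

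Histone genes are often arranged head to head, with a short shared promoter region between starts on opposite strands, and 13 such pairs had starts 176 to 660 bases apart. In 12 of them an H2A gene was paired with an H2B gene. Hist1h2ac and Hist1h2bc, 251 bases apart, were the 1 pair in which both genes were higher in both circEsyt2 siRNA libraries, although only Hist1h2bc was called. Hist1h2ah and Hist1h2bk, 302 bases apart, were the 1 pair in which both were lower, Hist1h2bk on 0 counted reads against 1 and 2. In 2 pairs the genes went opposite ways without overlap of the groups. Hist1h2ae was lower while Hist1h2bg, 176 bases away, was not called, and Hist1h2bf had 0.576 and 0.694 FPKM with circEsyt2 siRNA and 4.31 and 2.11 FPKM with scramble siRNA (limma adjusted p = 0.0726). Hist1h2ad, 185 bases from Hist1h2bf, had 1.86 and 3.35 FPKM with circEsyt2 siRNA and 0 and 1.27 FPKM with scramble siRNA (limma adjusted p = 0.168). In the remaining 9 pairs at least 1 gene had overlapping groups. Of all tested genes, 29.7% were higher and 31.1% lower without overlap, and both genes were tested in only 5 of the 13 pairs. These counts of pairs are therefore no result about the arrangement, which was not tested.

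Members also differed in how their transcripts are annotated to end. In 23 members the longest coding transcript model ran at least 100 bases past the stem-loop, as far as 840 bases in Hist1h1c, 377 in Hist2h3c2, 770 in Hist1h4d and 1257 in Hist2h4. These had a median level of 3.03 FPKM over the 4 libraries, and 19 of them were tested. In 22 members the model ended within 100 bases of the stem-loop, as in Hist1h3b (51 bases) and Hist1h2ab (11 bases), with a median of 1.45 FPKM and 13 tested. The 22 members without a stem-loop in the model had a median of 0.336 FPKM and 5 tested, Hist1h2bc being the 1 abundant member there. The summed level of the long-ended members was 204 and 188 FPKM with circEsyt2 siRNA and 122 and 117 FPKM with scramble siRNA, a ratio of 1.64. That of members ending near the loop was 49.3 and 57.2 FPKM, against 36.6 and 29.5 FPKM, a ratio of 1.61. The ratio was 1.47 in members with no loop in the model. Called higher were 4 of 19 tested long-ended members, 2 of 13 that end near the loop and 1 of 5 without a loop in the model. Of all tested genes 5.47% were called higher. A difference between these classes was not tested.

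Near-identical copies limit what can be said of single genes. In 20 members at least 50% of the 150-base stretches of the transcript occur in another gene, and 7 of these 20 were listed at 0, against 5 of the other 47. The 20 members summed to 37.8 and 39.9 FPKM with circEsyt2 siRNA and to 28.9 and 18.8 FPKM with scramble siRNA, a ratio of 1.63. The 47 with less shared sequence summed to 360 and 329 FPKM, against 212 and 229 FPKM, a ratio of 1.56. Separately, 24 of the 67 members overlap another annotated gene. How reads matching several genes were treated is not given in the sources used here, and their part in the zeros was not tested.

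**Figure D4:**
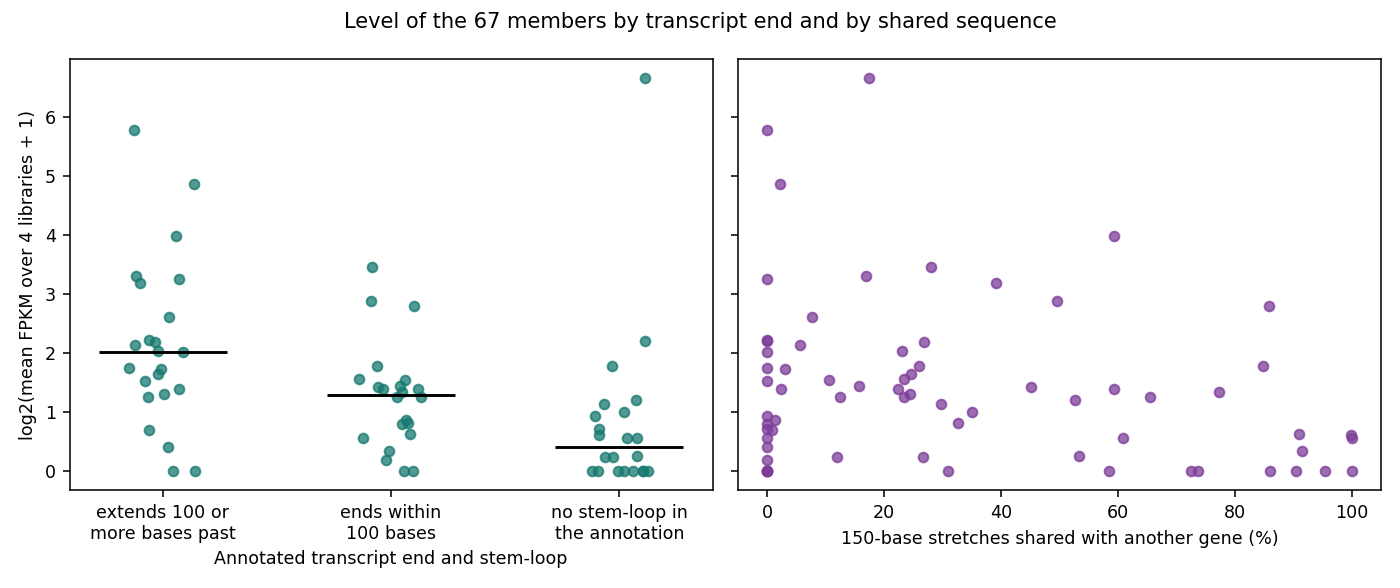
Level of each of the 67 members, log2 of the mean FPKM over 4 libraries plus 1, by where the annotated transcript ends relative to the stem-loop (left; lines are medians) and by the share of its 150-base stretches found in another gene (right). Median levels are 3.03, 1.45 and 0.336 FPKM from left to right, and 7 of the 12 members at 0 share at least 50% of their stretches.

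Genes whose products make or process histone RNA were mostly not called. Of 24 tested genes for histone pre-mRNA processing, none was called higher (5.47% of all tested genes), 1 was called lower (4.17%, against 7.26% of all) and 23 were not called, with a median log2 fold change of -0.02. Slbp, which binds the stem-loop, had 6.03 and 6.16 FPKM with circEsyt2 siRNA and 4.97 and 6.16 FPKM with scramble siRNA, and was not called. Npat, a transcriptional activator of the clustered genes, had 11.6 and 10.8 FPKM, against 10.5 and 12.8 FPKM, with overlapping groups. The gene called lower was Srrt, which encodes a partner of the nuclear cap-binding complex. It had 6.99 and 8.23 FPKM with circEsyt2 siRNA and 17.1 and 13.8 FPKM with scramble siRNA (log2 fold change -0.93 ± 0.17, limma adjusted p = 0.0251), a call lost with any 1 library left out and without a trend. Tut7, a uridylyltransferase that acts in decay of histone messenger RNA, followed by p with 7.36 and 7.25 FPKM, against 12.1 and 11.2 FPKM, and was not called (limma adjusted p = 0.0510).

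Histone genes outside the clusters, most of which encode variants made in or beyond S phase, did not share a direction. Of 11 tested, 1 was called higher (9.09%, against 5.47% of all), 1 lower (9.09%, against 7.26% of all) and 9 were not called (median log2 fold change 0.12). H3f3b and H3f3a encode the same replacement histone. H3f3b had 215 and 214 FPKM with circEsyt2 siRNA and 155 and 167 FPKM with scramble siRNA (log2 fold change 0.41 ± 0.10, limma adjusted p = 0.0450). That call was lost in 9 alternatives, among them no filter, quantile normalization, TPM, no trend and any 1 library left out. H3f3a had 7.35 and 7.85 FPKM with circEsyt2 siRNA and 15.5 FPKM in each scramble library (log2 fold change -0.94 ± 0.14, limma adjusted p = 0.0143), a call lost without either scramble library or circEsyt2 siRNA replicate 2.

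Histone chaperones, which carry histones to DNA, gave 2 genes called higher (8.33%, against 5.47% of all), 3 lower (12.5%, against 7.26% of all) and 19 not called of 24 tested (median log2 fold change -0.20). Ubn1, a subunit of the HIRA complex, had 14.8 and 16.4 FPKM with circEsyt2 siRNA and 8.94 and 7.40 FPKM with scramble siRNA (log2 fold change 0.86). Rbbp4, a histone-binding subunit of several chromatin complexes, had 12.5 and 13.8 FPKM, against 8.04 and 8.20 FPKM (0.63). Dnajc9, a heat shock co-chaperone that binds H3 and H4, had 7.93 and 10.5 FPKM, against 18.7 and 22.2 FPKM (-1.08). Hat1, the enzyme that acetylates new H4, had 11.2 and 4.99 FPKM with circEsyt2 siRNA and 23.5 and 19.9 FPKM with scramble siRNA (-1.41). Nap1l1, a chaperone of H2A and H2B, had 74.8 and 74.1 FPKM, against 101 and 108 FPKM (-0.48). In all 5 the groups did not overlap. Every one of these calls was lost without a trend in the variance and without circEsyt2 siRNA replicate 2. Those of Ubn1, Rbbp4 and Nap1l1 were lost with any 1 library left out and on TPM. With no filter the calls of Rbbp4, Nap1l1 and Hat1 were lost, and under trimmed mean and median ratio scaling that of Hat1.

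Clustered histone RNA is normally made in S phase, and genes of S phase entry and DNA synthesis were examined beside it. Of 40 tested, none was called higher (5.47% of all tested genes), 4 were called lower (10%, against 7.26% of all) and 36 were not called; 29 had a log2 fold change below 0 and the median was -0.20. Rrm2, a subunit of ribonucleotide reductase, had 41.1 and 39.0 FPKM with circEsyt2 siRNA and 72.3 and 87.7 FPKM with scramble siRNA (log2 fold change -0.97 ± 0.13, limma adjusted p = 0.0110). Its partner Rrm1, the cyclin gene Ccne1 and Uhrf1, a maintenance factor of DNA methylation, were the others called lower, with log2 fold changes of -0.64, -0.83 and -0.94. All 4 calls were lost without a trend and without circEsyt2 siRNA replicate 2. Of 12 markers of cycling cells, Mki67, Top2a, Aurkb and Cdc20 were called lower (33.3%, against 7.26% of all) and none higher. The calls of Mki67, Top2a and Cdc20 were lost without a trend. That of Top2a was also lost with no filter, on TPM and with a replicate block. The summed level of the 12 markers was 109 and 104 FPKM with circEsyt2 siRNA and 145 and 157 FPKM with scramble siRNA. Of 10 smooth muscle markers 8 were called lower (80%, against 7.26% of all) and none higher. Of 6 tested fibroblast markers 3 were called lower (50%, against 7.26% of all), Thy1, Mfap5 and Pdgfra. Summed fibroblast markers had 265 and 241 FPKM with circEsyt2 siRNA and 349 and 347 FPKM with scramble siRNA. Endothelial markers summed to 9.66 and 7.94 FPKM, against 3.94 and 4.41 FPKM, with Cldn5 at 0 in every library. Only 2 of these 8 markers were tested, and Kdr was called higher (50%, against 5.47% of all). That call was lost with no filter and with a replicate block. Macrophage markers summed to 39.5 and 8.32 FPKM with circEsyt2 siRNA and 12.7 and 14.6 FPKM with scramble siRNA, replicate 1 of circEsyt2 siRNA standing apart. Hepatocyte markers summed to 3140 and 100 FPKM with circEsyt2 siRNA and to 16.2 and 8.23 FPKM with scramble siRNA. They were thus higher in both circEsyt2 siRNA libraries, and their part cannot be told apart from that of the siRNA. The part of these changes, and of the hepatocyte transcripts, in the levels of the clustered histone genes was not tested.

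**Figure D5:**
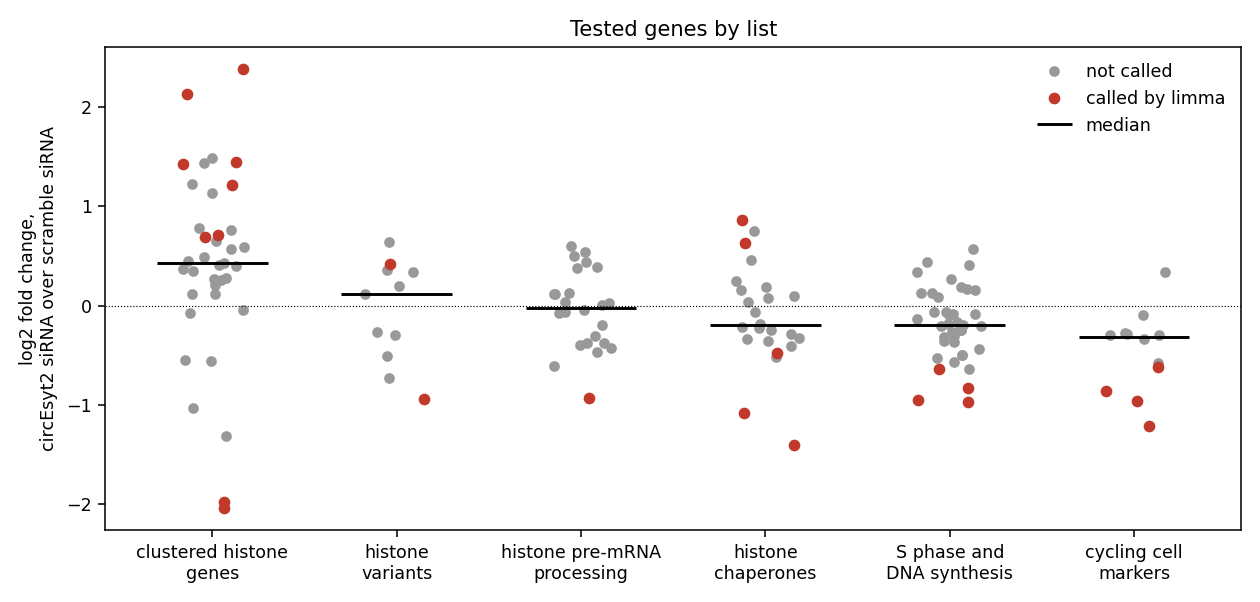
Log2 fold change of each tested gene, circEsyt2 siRNA over scramble siRNA on the log2(FPKM + 1) scale, by gene list, with genes called by limma in red and medians as lines. The medians are 0.43 for the 37 clustered histone genes, 0.12 for histone variants, -0.02 for pre-mRNA processing, and -0.20 for both chaperones and S phase genes.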

How the data were processed

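Values deposited by the authors are FPKM, 1 file per library and 1 row per gene. The submitters' processing notes name Trimmomatic, HISAT2, featureCounts, GRCm38 and mm10. Not given in the sources used here are versions, the strand setting, poly(A) selection and the handling of reads with several matches. Without strand, reads of a gene and of an overlapping partner cannot be told apart. Library totals were solved from the digits of the FPKM values with exon lengths of GENCODE M21, which gave whole counted reads in every library for 20048 of 20745 genes above 0 (96.6%, tolerance 0.0001) and for all 67 members. In each library more genes had 2 counted reads than 1, so mates appear to have been counted separately. Read numbers and floors of 3 reads cover counting error alone, because no molecular identifiers tell copies of 1 molecule apart.

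Genes averaging at least 1 FPKM were fitted with limma 3.58.1 in R 4.3.3 (eBayes with a trend, two-sided) on log2(FPKM + 1), with Benjamini-Hochberg adjustment over all tested genes. Groups and replicate numbers came from the sample titles. Named are every called member and the 4 members of each type with the highest mean FPKM, and from each list the called genes and the 2 genes with the smallest p, at most 6. Genes outside that rule (such as Slbp, Npat, Hist4h4, Hist1h1t and the partners in head-to-head pairs) were chosen after their values were seen, as were those pairs and the blocks on chromosome 13. The members and lists were chosen with earlier results of these data known. Steps were tested on simulated data whose spread came from the scramble libraries alone. Those lay closer together than the circEsyt2 siRNA libraries (Pearson's r of 0.972 against 0.931), so the simulation may understate the spread. Alternatives were other pseudocounts, filters, scalings and variance models, a replicate block, each library left out, and limma's voom on recovered reads. The correlation of the replicates' deviations from the group means was -0.05 over 11290 genes, and the labels do not say what a number shares.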

Additional observations from a re-analysis of the deposited data

How the results depend on the processing

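Over all genes, 1437 were called; without a trend in the variance 577, and with 1 library left out 0 to 1027, where a lone library is assumed to vary like the other group's. Both counts of 0 came from leaving out a scramble library, where limma gave 1959 and 2231 genes at an unadjusted p under 0.05. Clustered histone genes called numbered 9; they were 5 at a mean FPKM of at least 5 (11 members tested), 5 without a trend, 3 by voom, and 0 to 6 with a library left out. With the replicate number as a block, a pairing the labels do not state, 1008 genes and 7 members were called (6 higher, 1 lower); Hist1h2bc (limma adjusted p = 0.0588) and Hist1h2ah were the 2 members lost, and H3f3b, Rbbp4, Nap1l1, Rrm1 and Uhrf1 were lost from the lists. The members' median log2 fold change of 0.43 became 0.65 at a pseudocount of 0.1, 0.68 at a mean FPKM of at least 5 and 0.33 to 0.57 with a library left out. As a mean over tested members of log2(FPKM + 1), the log2 ratio was 0.41 for all, 0.20 for H1, 0.016 for H2B and 0.72 for H3. Without the most abundant member it was 0.018 for H1, -0.26 for H2A, 0.050 for H2B and 0.998 for H3, and in recovered reads 0.77 for H2A. With a library left out, the summed log2 ratio was 0.60 to 0.70 for all, 0.54 to 0.65 for H1, 0.06 to 0.25 for H2A, 0.46 to 0.72 for H2B, 1.12 to 1.26 for H3 and 0.51 to 0.77 for H4. Signs turned in 4 genes that the naming rule gave and that were not called, and in 8 other uncalled members, Hist1h3i and Hist1h4n among them. With a library left out, Hist1h1b ranged from -0.55 to 0.78, Hist1h3d from -0.13 to 0.93, Hist1h3e from -0.11 to 0.81 and Hist1h4h from -0.30 to 0.81, and by voom Hist1h1b stood at -0.070. Apart from the changes that fewer libraries or fewer tested genes bring by construction, the cause was not tested. Under trimmed mean, median ratio and quantile scaling, 7 members were called higher and 2 lower, as in the report. An alternative chosen after seeing the data was to count only members with at least 20 counted reads, as in the report, of which 6 were called. Depth limits H2A most: no tested H2A gene but Hist1h2ac and Hist3h2a had 20 reads.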
